A study of Mus musculus with 12 samples.

Results

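The genes described here encode 10 macrophage enzymes that make or use itaconate, nitric oxide, arginine and its products, or that supply a cofactor for them: Acod1, Nos2, Gch1, Arg1, Arg2, Ass1, Asl, Odc1, Idh1 and Sdha. They are a list of names, 10 of the 24675 named genes measured, drawn up with earlier results of these data known, so the counts below describe the list and do not test it. All 10 had 1 probe set each. Their mRNA was measured on 12 Affymetrix whole-transcript arrays in bone marrow-derived macrophages, primary cells grown from the marrow of WT mice aged 8 to 10 weeks.

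The arrays form 4 groups of 3: hepcidin for 1 h, PBS for 1 h, hepcidin for 3 h and PBS for 3 h. Hepcidin is the peptide hormone that lowers iron export by binding ferroportin, and PBS is the buffer control. In every group the marrow cells had been cultured for 7 days with L cell-conditioned medium, which supplies M-CSF, then replated, and moved 1 h before the addition to plain DMEM, so the controls also lacked serum and M-CSF from then on. The dose is not settled, since the growth protocol gives 1 µg/ml and the treatment protocol 10 µg/ml, and the treatment protocol speaks of the 1 h exposure only. The labels do not say whether the 3 arrays of a group stand for separate mice or separate cultures. The p-values therefore weigh differences against the spread among these arrays alone, and that spread may be technical.

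As background, activated macrophages turn cis-aconitate from the tricarboxylic acid cycle into itaconate with aconitate decarboxylase, the Acod1 product, and itaconate inhibits succinate dehydrogenase, of which Sdha is the flavoprotein subunit. Inducible nitric oxide synthase, encoded by Nos2, makes nitric oxide and citrulline from arginine and needs tetrahydrobiopterin, whose synthesis starts with GTP cyclohydrolase, the Gch1 product. Ass1 and Asl rebuild arginine from citrulline. The arginases, cytosolic Arg1 and mitochondrial Arg2, split arginine into urea and ornithine, and Odc1 turns ornithine into the polyamine putrescine. Idh1 is the cytosolic isocitrate dehydrogenase, a source of NADPH and 2-oxoglutarate. In mouse macrophages Nos2 is known as a gene of inflammatory activation and Arg1 as one of activation by IL-4.

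The values are log2 expression values. Array medians lay between 4.84 and 4.94, and arrays of one group correlated with r from 0.994 to 0.997. Markers of the labelled cell type were present: all 7 macrophage markers measured (Adgre1, Cd68, Csf1r, Itgam, Mertk, Fcgr1 and Cd14) stood above the array's median on all 12 arrays. The same was so for Elane and Mmp8 among 9 neutrophil markers, Itgax among 7 dendritic cell markers, 0 of 6 lymphocyte markers, Col1a1 and Col1a2 among 6 fibroblast markers and Kdr among 4 endothelial markers. In limma none of these markers of other cell types passed between hepcidin and PBS at 1 h or at 3 h. Between the times, Kdr was lower at 3 h than at 1 h in hepcidin cells (-1.19, adjusted p = 4.36e-05) and in PBS cells (-0.77, adjusted p = 0.00989), and Mpo was lower in hepcidin cells (-0.62, adjusted p = 0.0274). The Mpo call was lost when any of 3 arrays was left out (adjusted p 0.0901 to 0.118) and without moderation of the variance (0.0825). The Kdr call in PBS cells was lost when any of 2 arrays was left out (0.051 to 0.0519). With only the groups compared in the fit, both were lost (0.0673 for Mpo and 0.0579 for Kdr). The part of Kdr and Mpo in the time steps given here was not tested. Between hepcidin and PBS, among the macrophage markers Cd14 was higher at 3 h by 0.80 (adjusted p = 3.52e-05) and Mertk was lower, at -1.08 (adjusted p = 0.00375). Within hepcidin cells Cd14 was higher at 3 h than at 1 h by 0.71, and Mertk (-1.28) and Fcgr1 (-0.60) were lower (adjusted p = 0.000148, 0.00141 and 0.0211). The Fcgr1 call was lost when any of 4 arrays was left out (adjusted p 0.0535 to 0.0974). It was also lost without moderation of the variance (0.0652) and with only the groups compared (0.0744). In bulk RNA, fewer cells of a type and less RNA per cell cannot be told apart.

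With hepcidin 1 of the 10 genes rose at 1 h and 4 rose at 3 h, and 0 fell at either time. A gene is said to have risen or fallen where its adjusted p from limma was under 0.05. At 1 h Acod1 rose, while 0.559% of all genes passed in either direction with 0.527% higher and 0.0324% lower. At 3 h Acod1, Nos2, Arg2 and Gch1 rose, while 5.33% of all genes passed in either direction with 2.8% higher and 2.53% lower. The median difference of the 10 genes was 0.05 at 1 h, against -0.0022 over all genes, and 0.50 at 3 h, against 0.016 over all genes. The comparisons at 1 h and at 3 h share no array, but both use the same estimate of each gene's spread over all 12 arrays.

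Acod1 (Entrez gene 16365) had the clearest response. It read 8.96, 8.75 and 8.58 in hepcidin cells at 1 h, against 5.05, 5.32 and 4.93 in PBS cells. At 3 h it read 11.12, 11.13 and 11.03 in hepcidin cells, against 5.17, 5.44 and 4.84 in PBS cells. All hepcidin arrays lay above all PBS arrays at both times, and every hepcidin array of 3 h lay above those of 1 h. The difference was 3.66 at 1 h (SE 0.15, 95% interval 3.34 to 3.98, adjusted p = 5.69e-08 in limma). At 3 h it was 5.94 (SE 0.15, 95% interval 5.62 to 6.26, adjusted p = 6.87e-10), a 61.6-fold difference and the highest of all 24675 genes. The PBS values stood close to the array medians, where background can enter the signal and would make a change read smaller, so the fold is not exact.

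The Acod1 difference grew with time. Taken as the effect at 3 h minus the effect at 1 h, it was larger by 2.28 on the log2 scale (SE 0.21, 95% interval 1.83 to 2.74, adjusted p = 0.000313). Among hepcidin cells alone Acod1 was 5.03-fold higher at 3 h than at 1 h (log2 difference 2.33, SE 0.15, adjusted p = 5.12e-06). Among PBS cells the same step was 0.05 (SE 0.15, adjusted p = 0.963).

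**Figure D1:**
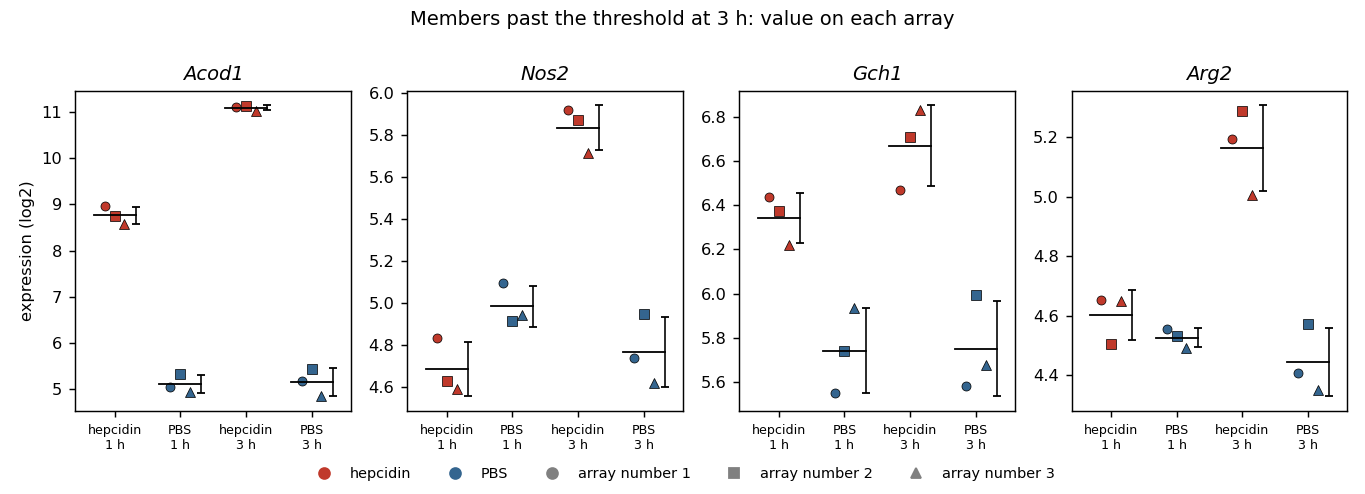
Log2 expression value on each array (y axis) of Acod1, Nos2, Gch1 and Arg2 in the 4 groups (x axis). Points are arrays, their shape gives the array's number in the labels, bars are group means and whiskers the SD of 3 arrays. Acod1 stands near 11.1 in hepcidin cells at 3 h and near 5.15 in PBS cells at 3 h, and Nos2 and Arg2 in hepcidin cells stand above PBS cells at 3 h, with Nos2 below them at 1 h.

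Nos2 (Entrez gene 18126) rose at 3 h, did not pass at 1 h, and its effects at both times differed. It read 5.92, 5.87 and 5.72 in hepcidin cells at 3 h, against 4.74, 4.95 and 4.62 in PBS cells. All hepcidin arrays lay above all PBS arrays, and above their own array's median, as did 1 of 3 PBS arrays. The difference was 1.07 (SE 0.10, 95% interval 0.85 to 1.29, adjusted p = 3.37e-05), or 2.1-fold. At 1 h it read 4.83, 4.63 and 4.59 in hepcidin cells, against 5.09, 4.92 and 4.94 in PBS cells, with every hepcidin array below every PBS array and below its own array's median. That difference was -0.30 (SE 0.10, unadjusted p = 0.0113) and did not pass across all genes (adjusted p = 0.508). The effect at 3 h exceeded that at 1 h by 1.37 (SE 0.14, 95% interval 1.06 to 1.68, adjusted p = 0.00078). The lower 1 h values enter that figure. Among hepcidin cells alone Nos2 was 2.22-fold higher at 3 h than at 1 h (adjusted p = 3.9e-05). The values sit near the array medians, background was not measured, and these folds are therefore not exact.

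Gch1 (Entrez gene 14528), which starts the synthesis of the nitric oxide synthase cofactor, stood higher with hepcidin at both times and passed at 3 h. It read 6.47, 6.71 and 6.83 in hepcidin cells at 3 h, against 5.58, 5.99 and 5.68 in PBS cells, a difference of 0.92 (SE 0.13, 95% interval 0.63 to 1.20, 1.89-fold, adjusted p = 0.000977). At 1 h it read 6.44, 6.37 and 6.22 in hepcidin cells, against 5.55, 5.74 and 5.93 in PBS cells. The groups did not overlap at either time. The 1 h difference of 0.60 (SE 0.13, 95% interval 0.32 to 0.89) had an unadjusted p of 0.000603 and an adjusted p of 0.0896, so it missed the threshold. The effects at both times differed by 0.32 (SE 0.19, 95% interval -0.09 to 0.72, adjusted p = 0.627). A larger Gch1 effect at 3 h was therefore not shown, and the interval does not exclude one.

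The promoters of Acod1 and Gch1 are shown because both genes rose at 3 h. Each is the 250 bases before the gene's start in RefSeq (build GRCm38.p6), read 5′ to 3′ on the gene's strand. The RefSeq table held windows for 6 of the 10 genes, and Nos2, Arg2, Arg1 and Asl are not listed in it. The Acod1 stretch is chr14:103046762-103047011 on the plus strand, with 44.4% GC, and the Gch1 stretch is chr14:47189414-47189663 on the minus strand, with 59.2% GC. Capitals mark matches on either strand to GGANNTTCC, a core form of the NF-kB motif, and to TATAAA, the TATA box.
Acod1: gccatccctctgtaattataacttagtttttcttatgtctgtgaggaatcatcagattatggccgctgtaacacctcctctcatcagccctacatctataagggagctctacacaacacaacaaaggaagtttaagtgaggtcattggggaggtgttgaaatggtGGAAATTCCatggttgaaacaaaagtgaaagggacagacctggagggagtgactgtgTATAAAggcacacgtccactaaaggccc
Gch1: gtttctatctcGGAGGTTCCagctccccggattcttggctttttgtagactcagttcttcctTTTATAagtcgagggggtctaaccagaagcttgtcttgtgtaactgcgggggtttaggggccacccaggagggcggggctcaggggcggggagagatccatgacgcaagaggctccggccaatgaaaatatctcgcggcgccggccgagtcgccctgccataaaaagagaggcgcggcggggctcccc
In Acod1 the core NF-kB form matches on both strands at positions -85 to -77 and TATAAA at -28 to -23, counted from the start. In Gch1 the core form matches at -239 to -231 and TATAAA matches on the opposite strand at -188 to -183. Over all 32851 windows of 300 bases in the table, 4.26% held GGANNTTCC and 13.6% held TATAAA. GGANNTTCC and GAAANNGAA (below) were chosen after these windows had been seen. Of the 6 genes with a window, Idh1 also held GGANNTTCC, in 1 of its windows. A stricter NF-kB motif with 1 further base was in neither window and in 1.47% of all, and a looser one was in both windows and in 50.8% of all. Neither window matched TTCNNNGAA of STAT sites (8.3% of all windows), TGANTCA of AP-1 sites (7.81%), TTGCNNAA of C/EBP sites (10.8%), CACGTG, an E box (7.15%), or GAAANNGAA of interferon response elements (8.56%). Matches describe letters in these windows, and binding of a factor was not measured.

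Arg2 (Entrez gene 11847), the mitochondrial arginase, rose at 3 h from values below the array medians. It read 5.19, 5.29 and 5.00 in hepcidin cells at 3 h, against 4.41, 4.57 and 4.35 in PBS cells. All hepcidin arrays stood above all PBS arrays and above their own array's median, which no PBS array reached. Those PBS values lie where background can enter the signal, so the fold is not exact. The difference was 0.72 (SE 0.09, 95% interval 0.53 to 0.91, 1.64-fold, adjusted p = 0.000249). At 1 h Arg2 read 4.65, 4.51 and 4.65 in hepcidin cells, against 4.55, 4.53 and 4.49 in PBS cells. There the groups overlapped, and the difference was 0.08 (SE 0.09, adjusted p = 0.94). The effect at 3 h exceeded that at 1 h by 0.64 (SE 0.12, 95% interval 0.37 to 0.91, adjusted p = 0.0281). This last call was lost when any of 9 of the 12 arrays was left out, with adjusted p from 0.0585 to 0.0907. The 3 arrays whose omission kept it were numbered 1 in the 1 h hepcidin group, 3 in the 3 h hepcidin group and 2 in the 3 h PBS group. The rise at 3 h itself kept its call whichever array was left out, with adjusted p of at most 0.00214.

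Arg1 (Entrez gene 11846), the cytosolic arginase, did not pass at either time. It read 7.24, 8.13 and 7.79 in hepcidin cells at 3 h, against 7.20, 8.31 and 8.24 in PBS cells. At 1 h it read 7.77, 8.69 and 8.53 in hepcidin cells, against 7.86, 8.76 and 8.58 in PBS cells. The groups overlapped at both times, and in each of the 4 groups the array numbered 1 was the lowest and the array numbered 2 the highest. The difference was -0.07 at 1 h (SE 0.35, 95% interval -0.82 to 0.69, adjusted p = 0.995) and -0.20 at 3 h (SE 0.35, 95% interval -0.95 to 0.56, adjusted p = 0.84). Its SD within groups, 0.51, was larger than that of 99.8% of genes, where the median gene had 0.122. Between same-numbered arrays, hepcidin minus PBS was -0.09, -0.07 and -0.04 at 1 h, and 0.05, -0.17 and -0.46 at 3 h. With the replicate number as a block, Arg1 still did not pass between hepcidin and PBS at either time. Its steps between the times then passed, with an SE of 0.09 (below). The labels do not say what the number shares. The difference between the responses of Arg1 and Arg2 was not tested.

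Ass1 (Entrez gene 11898), which joins citrulline to aspartate, was the other variable member, with an SD of 0.42, larger than that of 99.2% of genes. It read 6.40, 5.35 and 6.03 in hepcidin cells at 3 h, against 5.59, 5.27 and 5.16 in PBS cells. At 1 h it read 6.63, 5.59 and 5.84 in hepcidin cells, against 5.35, 5.40 and 5.84 in PBS cells. The hepcidin group reached higher but overlapped the PBS group at both times, and its highest array was the one numbered 1 each time. The difference was 0.49 at 1 h (SE 0.28, 95% interval -0.13 to 1.11, adjusted p = 0.829) and 0.58 at 3 h (SE 0.28, 95% interval -0.03 to 1.20, adjusted p = 0.33). Asl (Entrez gene 109900), which completes the recycling of citrulline to arginine, averaged 7.78 ± 0.12 in hepcidin cells and 7.78 ± 0.04 in PBS cells at 3 h (SD, n = 3 each). Its 95% interval ran from -0.18 to 0.18 (adjusted p = 0.997), and at 1 h the difference was 0.07 (SE 0.08, adjusted p = 0.947).

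Odc1 (Entrez gene 18263), the enzyme that feeds ornithine into polyamines, separated the groups at 3 h without passing the threshold. It read 7.30, 6.72 and 6.83 in hepcidin cells at 3 h, against 6.71, 6.36 and 6.52 in PBS cells. The groups did not overlap, by a margin of less than the spread within either group, and the difference was 0.42 (SE 0.13, 95% interval 0.13 to 0.71, unadjusted p = 0.00903, adjusted p = 0.111). With the replicate number as a block, Odc1 passed at 3 h in limma (SE 0.09, adjusted p = 0.0202). At 1 h it averaged 6.86 ± 0.09 in hepcidin cells and 6.91 ± 0.08 in PBS cells (SD, n = 3 each, adjusted p = 0.988). The 3 h and 1 h effects differed by 0.47 (SE 0.19, unadjusted p = 0.0295, adjusted p = 0.41). PBS cells at 3 h also lay below PBS cells at 1 h, by a difference of -0.38 (SE 0.13, adjusted p = 0.301), while hepcidin cells at 3 h differed from hepcidin cells at 1 h by 0.09 (SE 0.13, adjusted p = 0.808). These comparisons share the 3 h arrays with the one above, so their values are not independent of it.

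Idh1 and Sdha had the narrowest spread of the 10 genes. Idh1 (Entrez gene 15926) read 10.45, 10.43 and 10.25 in hepcidin cells at 3 h, against 10.60, 10.55 and 10.54 in PBS cells. Every hepcidin array lay below every PBS array, by a difference of -0.19 (SE 0.07, 95% interval -0.34 to -0.03, unadjusted p = 0.0215, adjusted p = 0.186). At 1 h the difference was -0.04 (SE 0.07, adjusted p = 0.977). Sdha (Entrez gene 66945), part of the enzyme that itaconate inhibits, averaged 10.01 ± 0.07 in hepcidin cells and 10.10 ± 0.01 in PBS cells at 3 h (SD, n = 3 each). Its difference was -0.09 (SE 0.06, 95% interval -0.23 to 0.05, adjusted p = 0.52), again with every hepcidin array below every PBS array. At 1 h Sdha differed by 0.02 (SE 0.06, adjusted p = 0.992). Enzyme activity was not measured.

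**Figure D2:**
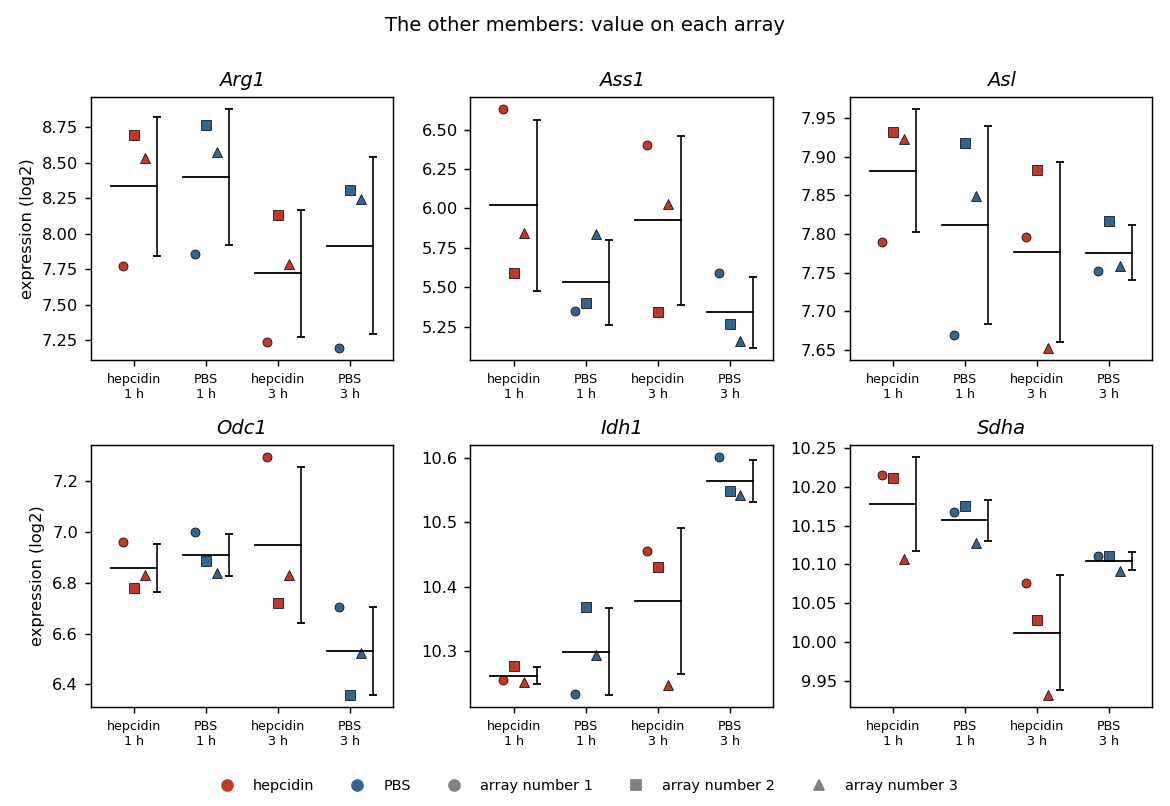
Log2 expression value on each array (y axis) of Arg1, Ass1, Asl, Odc1, Idh1 and Sdha in the 4 groups (x axis), drawn as for the genes that rose. Arg1 and Ass1 show the widest spread within groups, with SDs of 0.51 and 0.42, and Odc1 in hepcidin cells lies above PBS cells at 3 h.

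Counted over the 10 genes, the groups did not overlap for 3 at 1 h (Acod1 and Gch1 higher, Nos2 lower), as for 12.3% of all genes, 6.47% higher and 5.86% lower. At 3 h they did not overlap for 7 (Acod1, Nos2, Arg2, Gch1 and Odc1 higher, Idh1 and Sdha lower), as for 21.7% of all genes, 11.8% higher and 9.9% lower. An unadjusted p under 0.05 was found for 3 of 10 at 1 h, where 6.82% of all genes had one, and for 6 of 10 at 3 h, where 16.9% did.

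The effect of hepcidin differed between the times for 3 of the 10 genes, Acod1, Nos2 and Arg2, each larger at 3 h, while 1.03% of all genes passed that test, 0.523% with the larger value at 3 h. For Gch1 and Odc1 it was not shown to differ (above). The others lay between -0.15 for Idh1 and 0.09 for Ass1, none past the threshold. Without hepcidin, 0 of the 10 genes passed between PBS at 3 h and PBS at 1 h in limma, where 0.45% of all genes did. An unadjusted p under 0.05 was found for 2 of them, Odc1 and Idh1, and for 10.6% of all genes. Idh1 was higher by 0.26 at 3 h (SE 0.07, adjusted p = 0.153), and Arg1 differed by -0.48 (SE 0.35, adjusted p = 0.73). With the replicate number as a block, Arg1 passed between the PBS times (SE 0.09, adjusted p = 0.0374 in limma). With a trended and robust prior Idh1 passed there (adjusted p = 0.0305). Within hepcidin cells 3 of 10 rose between 1 h and 3 h, Acod1, Nos2 and Arg2 (2.33, 1.15 and 0.56 on the log2 scale), where 5.05% of all genes passed and 2.44% rose. This comparison shares its arrays with those above. Gch1 differed there by 0.33 (adjusted p = 0.221), and its groups did not overlap.

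**Figure D3:**
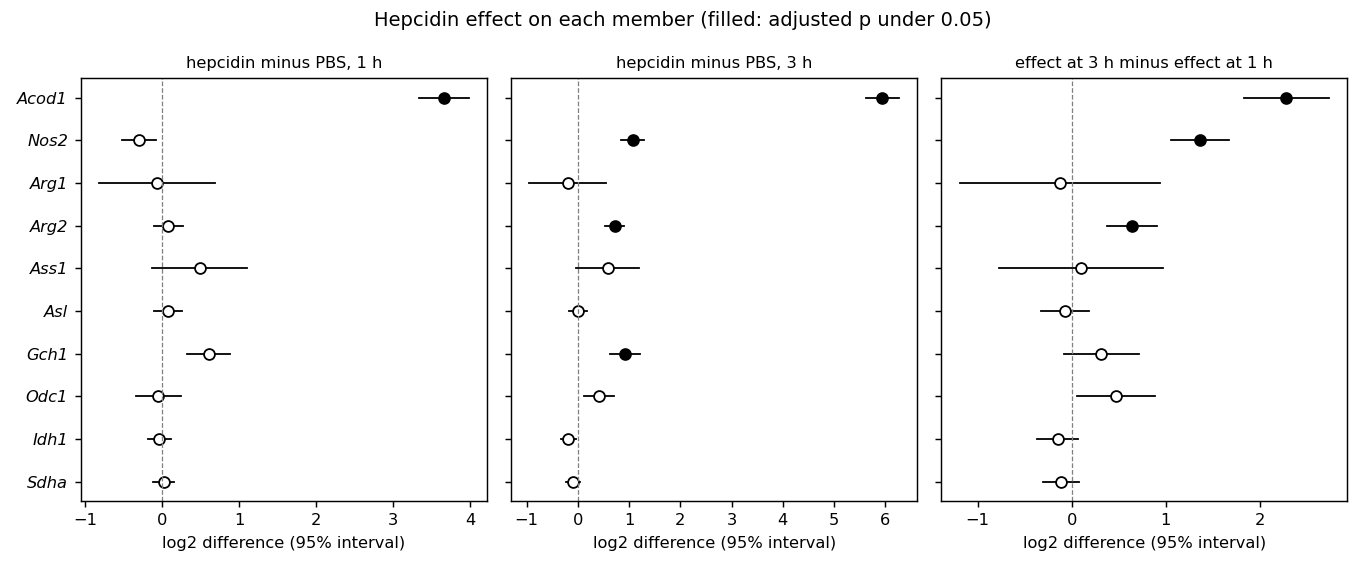
Difference in log2 expression (x axis) with its 95% interval for each of the 10 genes (y axis), in 3 panels: hepcidin minus PBS at 1 h, hepcidin minus PBS at 3 h, and the 3 h effect minus the 1 h effect. Filled points passed the threshold across all genes: 1 gene at 1 h, 4 genes at 3 h and 3 genes for the change of the effect.

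Among genes outside the 10, those whose log2 values followed Acod1 most closely over the 12 arrays were Icam1 (Pearson r = 0.995), Gpr84 (0.995) and Clec4e (0.992). Gpr84 differed by 2.61 at 1 h and 4.29 at 3 h between hepcidin and PBS cells. For Gch1 they were Noct (0.979), Ccl4 (0.969) and Slc49a4 (0.969). Those closest to Arg2 were Rilpl2 (0.953), Rac2 (0.949) and St3gal1 (0.947), and those closest to Nos2 were Vegfc (0.948), Mtdh (0.946) and Slco3a1 (0.941). Slco3a1 differed by -0.10 at 1 h and 1.55 at 3 h. These correlations run over the same arrays in the same 4 groups, which largely set their size, and are given as descriptions.

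No other measured gene of tetrahydrobiopterin metabolism passed beside Gch1. Of 7 such genes listed, 6 were measured. Limma called 0 of the 6 at 1 h and 0 at 3 h, where 0.559% and 5.33% of all genes passed. At either time 0 of the 6 had an unadjusted p under 0.05, where 6.82% of all genes had one at 1 h and 16.9% at 3 h. With 6 genes, counts of 0 do not set the list apart from all genes. Their differences at 3 h ran from -0.03 for Spr, sepiapterin reductase, which makes the final step of the synthesis, to 0.03 for Qdpr, which regenerates the cofactor. At 1 h Spr was at -0.16 (SE 0.10, adjusted p = 0.834). The median of the 6 at 3 h was 0.015, close to the 0.016 of all genes. Pcbd1 averaged 3.26 in hepcidin cells and 3.28 in PBS cells at 3 h, below the array medians. Gchfr, at 5.02 and 4.99, stood close to them. Background can make a change read smaller there.

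Of 10 other genes for nitric oxide synthases, their modifiers and the nitric oxide receptor, 0 passed at 1 h and 1 fell at 3 h. Of all genes 0.559% passed at 1 h and 5.33% at 3 h, with 2.53% lower there. The 1 gene that fell was Nostrin, known for binding and relocating endothelial nitric oxide synthase. Nostrin read 7.82, 7.85 and 7.71 in hepcidin cells, against 8.46, 8.40 and 8.41 in PBS cells, with no overlap. The difference was -0.63 (SE 0.08, adjusted p = 0.000246). The median of the list was 0.02 at 3 h.

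Among 18 genes of arginine transport and other arginine and ornithine reactions, 0 passed at 1 h, and 1 rose and 1 fell at 3 h. Of all genes 0.559% passed at 1 h, and 2.8% rose and 2.53% fell at 3 h. Slc7a1, which encodes a cationic amino acid transporter that imports arginine, read 8.95, 8.69 and 8.84 in hepcidin cells, against 8.35, 8.32 and 8.28 in PBS cells at 3 h. All hepcidin arrays were above all PBS arrays, by a difference of 0.51 (SE 0.09, adjusted p = 0.00585). Gatm, which uses arginine in the first step of creatine synthesis, fell at 3 h, by a difference of -0.28 (SE 0.07, adjusted p = 0.0273). Its call was lost when PBS 3 h replicate 1, 2 or 3 or hepcidin 3 h replicate 2 or 3 was left out (adjusted p 0.0626 to 0.0973), and with only the 3 h groups in the fit (0.0978). At 3 h 17 of the 18 differences were above 0, with a median of 0.09 against 0.016 over all genes. At 1 h, where 0 passed, 15 of the 18 were above 0, with a median of 0.05 against -0.0022. Some of the differences at 3 h were small, such as 0.01 for Slc25a2 and Oat. The share of all genes above 0 was not counted, and the signs were not tested.

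In the polyamine list of 12 other genes, 0 passed at 1 h and 1 rose at 3 h. Of all genes 0.559% passed at 1 h and 5.33% at 3 h, with 2.8% higher there. Between the times 0.45% of all genes passed in PBS cells and 5.05% in hepcidin cells. Srm, spermidine synthase, which acts on the putrescine made by Odc1, read 8.61, 8.73 and 8.98 in hepcidin cells, against 8.23, 8.31 and 8.23 in PBS cells at 3 h. The groups did not overlap, and the difference was 0.51 (SE 0.10, adjusted p = 0.00658). At 1 h Srm averaged 9.00 in hepcidin cells and 8.96 in PBS cells. PBS cells at 3 h lay below PBS cells at 1 h for Srm by -0.70 (SE 0.10, adjusted p = 0.00954), and hepcidin cells at 3 h differed from hepcidin cells at 1 h by -0.23 (SE 0.10, adjusted p = 0.249). The fall in PBS cells was no longer called without PBS 1 h replicate 3 (0.051) or PBS 3 h replicate 3 (0.0546). Azin1, an inhibitor of antizyme that protects ornithine decarboxylase, was the 1 gene of the list past the threshold between the hepcidin times, lower at 3 h by -0.71 (SE 0.09, adjusted p = 0.000589), with a step of -0.41 in PBS cells (adjusted p = 0.0865). Between hepcidin and PBS cells at 3 h Azin1 differed by -0.15 (adjusted p = 0.458). For Slc7a1 the same steps were -0.33 in PBS cells (adjusted p = 0.182) and 0.08 in hepcidin cells (adjusted p = 0.73). As with Odc1, these comparisons share the 3 h arrays with the difference between hepcidin and PBS. The change of effect between 1 h and 3 h did not pass for Srm (0.47, SE 0.14, adjusted p = 0.178) or Slc7a1 (0.41, SE 0.13, adjusted p = 0.255). The median of the polyamine list at 3 h was -0.07.

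The amino acid transporter chain Slc3a2, a partner subunit of several amino acid transporters, was lower at 3 h than at 1 h in PBS cells (-0.58, SE 0.06, adjusted p = 0.00296, or 0.0551 with only the PBS groups in the fit) and in hepcidin cells (-0.38, SE 0.06, adjusted p = 0.00294). Between hepcidin and PBS cells at 3 h it differed by 0.18 (SE 0.06, adjusted p = 0.128). It was the 1 gene of the arginine list past the threshold between the PBS times, where 0.45% of all genes passed. Between the hepcidin times 2 passed, Slc3a2 and Gatm (-0.29, adjusted p = 0.0268), and the Gatm call was lost without 1 of 5 arrays (adjusted p 0.058 to 0.0944). Of all genes 5.05% passed between the hepcidin times.

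Of 28 genes of the tricarboxylic acid cycle, succinate dehydrogenase and itaconate handling, 0 passed at 1 h and 1 rose at 3 h. Of all genes 0.559% passed at 1 h and 5.33% at 3 h, with 2.8% higher there. Slc25a10, the mitochondrial dicarboxylate carrier, averaged 8.27 in hepcidin cells and 7.86 in PBS cells at 3 h, a difference of 0.41 (SE 0.09, adjusted p = 0.0154). Its call was lost when any one of 3 arrays was left out, hepcidin 3 h replicate 2 (adjusted p = 0.0604), PBS 3 h replicate 2 (0.0576) and PBS 3 h replicate 3 (0.0586). The differences of this list at 3 h lay between -0.24 and 0.41 with a median of 0.02. Between the hepcidin times 1 gene of the list fell, Idh3b, a subunit of mitochondrial isocitrate dehydrogenase, at -0.28 (SE 0.07, adjusted p = 0.0368), a call lost when any of 11 arrays was left out (adjusted p 0.0513 to 0.147). Between the PBS times 0 passed. Of all genes 5.05% passed between the hepcidin times and 0.45% between the PBS times.

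**Figure D4:**
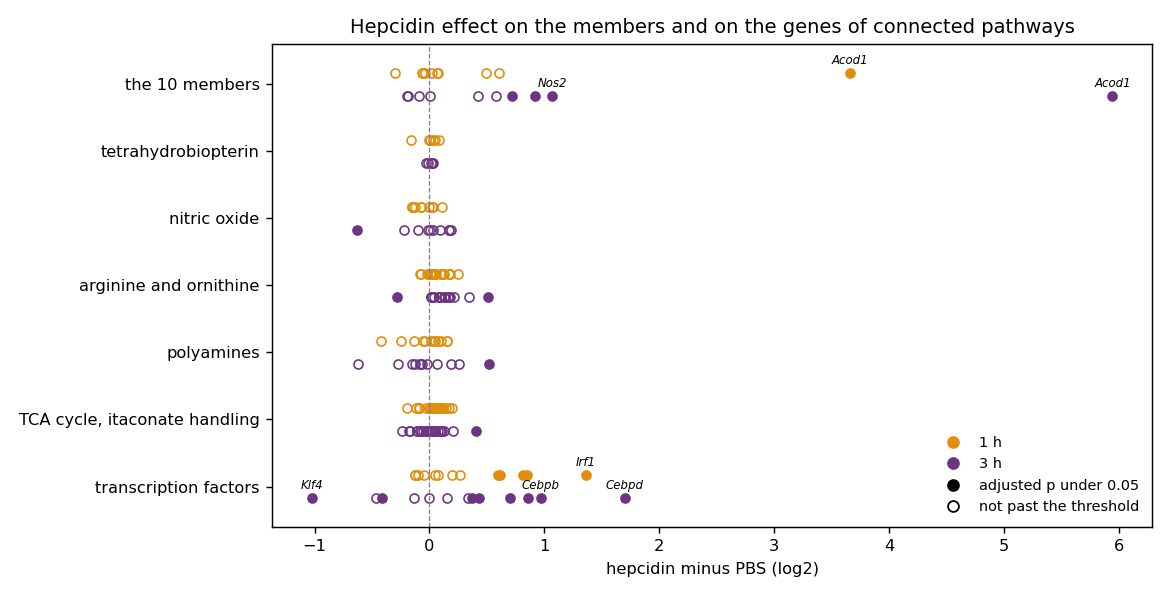
Hepcidin minus PBS difference in log2 expression (x axis) at 1 h (orange) and at 3 h (purple) for the 10 genes and for 6 lists of related genes (y axis). Each point is a gene, and filled points passed the threshold. Acod1 lies farthest right at 5.94, and the tetrahydrobiopterin list stays within -0.16 to 0.09.

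Among 13 measured genes for transcription factors known from other work to act on Acod1, Nos2 or Arg1, 5 rose at 1 h, and 6 rose and 2 fell at 3 h. Of all genes 0.527% rose and 0.0324% fell at 1 h, and 2.8% rose and 2.53% fell at 3 h. Irf1, an interferon regulatory factor needed for full Nos2 induction in mouse macrophages, rose by 1.36 at 1 h (SE 0.09, adjusted p = 5.37e-06). Myc rose by 0.85, Cebpd by 0.82 and the NF-kB subunit gene Rel by 0.61 at 1 h (SEs 0.13, 0.09 and 0.09). The Myc call was lost without moderation of the variance (adjusted p = 0.0705) and the Rel call with only the 1 h groups in the fit (adjusted p = 0.0585). At 3 h Cebpd rose by 1.70 (SE 0.09, adjusted p = 1.57e-07), Cebpb, a C/EBP factor known to act on Arg1, by 0.97 and Rel by 0.85. Klf4, known in mouse macrophages for promoting Arg1 with STAT6, fell at 3 h, by a difference of -1.02 (SE 0.15, adjusted p = 0.00113). Arg1 itself did not pass at 3 h (above).

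The time course of these factors was not uniform. Irf1 read 7.28, 7.62 and 7.66 in hepcidin cells at 3 h, against 8.21, 8.13 and 8.17 in hepcidin cells at 1 h. In PBS cells it read from 6.77 to 6.88 at 3 h and from 6.76 to 6.86 at 1 h. Its effect at 3 h was smaller than at 1 h by a difference of -0.66 (SE 0.13, adjusted p = 0.0323), a call lost when any of 9 of the 12 arrays was left out, all but the 3 hepcidin arrays of 3 h (adjusted p 0.0671 to 0.102). The Cebpd effect was larger at 3 h, by 0.88 (SE 0.12, adjusted p = 0.00448), and kept its call whichever array was left out. Between the hepcidin times 3 factors rose and 2 fell, led by Klf4 (-1.32), Cebpd (1.27), Irf1 (-0.65) and Cebpb (0.54), and between the PBS times 0 passed. Of all genes 5.05% passed between the hepcidin times, with 2.44% higher, and 0.45% between the PBS times. By the tests of the effects Acod1, Nos2 and Cebpd had the larger effect at 3 h, and kept that call in every alternative. Arg2 had the larger effect at 3 h and Irf1 at 1 h, with both calls lost when any of 9 arrays was left out. The Irf1 call was also lost without moderation of the variance (adjusted p = 0.069). Among the markers Cd14 passed the same test (0.57), a call lost when any of 9 arrays was left out (adjusted p 0.0545 to 0.0814).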

How the data were processed

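Total RNA of mouse bone marrow-derived macrophages was biotin-labelled and hybridized to Affymetrix arrays, 3 in each of 4 groups. The deposited table holds log2 values made by the authors, with RMA and Partek named per the submitters' processing notes, without version or role. The log base is not stated in the sources used here and was taken from RMA's usual output and the range of the values. For the authors' genome build, the sources used here name none.

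Of 25429 probe sets, 24675 carried 1 gene symbol and were tested, and 754 were not named. Differences were fitted in R 4.3.3 with limma 3.58.1 (lmFit, eBayes) as 4 group means over 12 arrays, with 8 residual degrees of freedom. P-values were adjusted by Benjamini and Hochberg over all 24675 genes within each of 5 comparisons, at a threshold of 0.05, with no filter on low values. The procedure was tested on simulated data.

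The 10 genes and the lists were chosen with earlier results of these data known, so list counts are descriptions. All 10 genes were named, in each comparison up to 4 genes past the threshold from each list, or up to 2 where none passed, markers by their calls, and the 3 genes most correlated with each gene that rose. Further list genes are not analysed here. As alternatives the fit was repeated with the replicate number as a block, another prior, no moderation, a filter on dim genes, renormalization, median centring, all probe sets, array weights, only the groups compared, and each array left out. With 3 arrays per group, the number of arrays limits the precision.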

Additional observations from a re-analysis of the deposited data

Results flagged for a closer look

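By limma's test of the difference between the effects, the effect of hepcidin differed between 3 h and 1 h for 3 of the 10 genes. Of all genes 1.03% passed that test, 0.523% with the larger value at 3 h. The 10 genes were chosen with earlier results of these data known, so this count describes the list. For Acod1 the effect at 3 h exceeded that at 1 h by 2.28 on the log2 scale (SE 0.21, adjusted p = 0.000313). For Nos2 it did so by 1.37 (SE 0.14, adjusted p = 0.00078), with hepcidin cells above PBS cells on every array at 3 h and below them on every array at 1 h. The lower Nos2 values at 1 h did not pass in limma (-0.30, adjusted p = 0.508). Groups did not overlap for 12.3% of all genes at 1 h, 5.86% lower, and the Nos2 values there sit near the array medians. For Arg2 the effect at 3 h exceeded that at 1 h by 0.64 (SE 0.12, adjusted p = 0.0281), a call that was lost when any of 9 arrays was left out.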

How the results depend on the processing

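Of the 50 differences of the 10 genes over 5 comparisons, 11 passed, and 10 of these kept their call under every alternative that gave a value, each array left out included. The exception was Arg2 for the change of the effect, which left 2 genes past the threshold there without moderation, with renormalization, with median centring and without any of 9 arrays. The filter on dim genes dropped Arg2, so it has no value there. All 11 calls came from Acod1, Nos2, Arg2 and Gch1, in comparisons that share arrays, so they are not 11 separate results. Of all genes 0.559% passed at 1 h, 5.33% at 3 h and 1.03% for the change of the effect. Between the PBS times 0.45% of all genes passed, and between the hepcidin times 5.05%. Replicate numbers did not meet the rule used for pairing, that all correlations of same-numbered deviations be over 0.1. These ran from 0.0595 to 0.134 at 1 h and from 0.0645 to 0.206 at 3 h. Missing this cut-off does not show that the arrays are unpaired. Differently numbered arrays gave -0.124 to 0.0383 at 1 h and -0.173 to 0.0404 at 3 h, so each array correlated best with its own number there, a hint from the data and not the design. This did not hold for every array between the times. With the replicate block Odc1 passed at 3 h (0.42, adjusted p = 0.0202), Arg1, whose SE shrank to 0.09, passed between the PBS times (-0.48, adjusted p = 0.0374) and the hepcidin times (-0.61, adjusted p = 0.00224), and the count of the 10 genes between the PBS times became 1, as it did for Idh1 with a trended and robust prior (also 1). The block left the other calls of the 10 genes as they were.

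Counts over all genes moved more. At 3 h 1316 became 805 with only the groups compared and 837 to 1287 with an array left out, and between the hepcidin times 1246 became 616 and 721 to 1178. For the change of the effect 254 became 433 with a trended and robust prior, 412 with genes above the median and 141 to 234 with an array left out. That difference has no fit of only the groups compared. Between the PBS times 111 became 240 with the replicate block, 319 with a trended and robust prior, 333 with genes above the median, 64 with median centring, 285 with array weights, 7 with only the groups compared and 23 to 126 with an array left out.

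Signs turned only for differences that did not pass. With array weights, Acod1 between the PBS times was -0.016 and Ass1 between the hepcidin times 0.0287, and Asl at 3 h was -7e-04 with renormalization and -0.0103 with median centring. With an array left out, Arg1 ran from -0.34 to 0.21 at 1 h, from -0.56 to 0.0437 at 3 h and from -0.49 to 0.14 for the change of the effect. Asl ran from -0.0012 to 0.12 at 1 h, from -0.0514 to 0.0637 at 3 h, from -0.12 to 0.0025 for the change and from -0.11 to 0.0164 between the PBS times. Ass1 ran from -0.14 to 0.40 for the change and from -0.33 to 0.21 between the hepcidin times, Odc1 from -0.0812 to 0.21 between the hepcidin times, and between the PBS times Gch1 ran from -0.11 to 0.10 and Acod1 from -0.10 to 0.20. The cause was not tested.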
